A study of Sus scrofa with 17 samples.

Results

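SMTNL1 (smoothelin-like 1) and 4 genes of myosin phosphorylation were followed in the longissimus muscle of piglets: PPP1R12A and PPP1R12B, the targeting subunits of myosin phosphatase, and MYLK2 and MYLK4, kinases of the myosin light chain family. The 5 genes were chosen by name, and all 5 were found among the 31908 genes of the deposited table and among the 14203 that passed the filter on low counts. SMTNL1 was chosen with its difference between ULU and UL already known, and the other 4 genes were chosen with earlier results of these libraries in view, so their differences between diets are given as descriptions without a test.

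The study sequenced muscle RNA from male Large White × Duroc piglets, 1 library per piglet. The control group (6 piglets, numbers 21 to 26) ate a wheat, maize and soybean meal diet. The UL group (6 piglets, 27 to 32) ate the same base with 7% of the green seaweed Ulva lactuca. The ULU group (5 piglets, 40 to 44) received, beside 7% Ulva lactuca, ulvan lyase at 0.01% of the diet, which degrades ulvan, a polysaccharide of the cell wall of this seaweed. All piglets entered the study at 28 days of age, had 5 days of adaptation and were fed their diet for 2 weeks, housed one by one and pair-fed. No genotype differed between groups, and the muscle was whole tissue, so fewer cells of a type and less RNA per cell cannot be told apart in any value below.

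Phosphorylation of the regulatory light chain of myosin is set by a kinase and a phosphatase that act against each other. In skeletal muscle the calcium and calmodulin dependent kinase MYLK2 adds the phosphate, which makes fast fibres contract more strongly after repeated stimulation. Myosin phosphatase, a catalytic subunit of protein phosphatase 1 held on myosin by a targeting subunit of the PPP1R12 family, removes it. SMTNL1 is a cytoplasmic and nuclear protein of muscle, a substrate of the cyclic AMP and cyclic GMP dependent kinases, that is known to lower the expression and activity of the targeting subunit PPP1R12A and to take part in the muscle's response to exercise and pregnancy.

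On the pig assembly Sscrofa11.1, SMTNL1 (ENSSSCG00000031163) lay on the reverse strand of chromosome 2, from 13370924 to 13384808, with 1699 exonic bases in 8 exonic blocks. PPP1R12A (ENSSSCG00000038973) lay on the forward strand of chromosome 5, from 101490277 to 101639442, with 6418 exonic bases in 27 blocks. PPP1R12B (ENSSSCG00000010925) lay on the forward strand of chromosome 10, from 24465041 to 24637360, with 7850 exonic bases in 23 blocks. The 5 genes sat on 5 different chromosomes, so none was a neighbour of another. MYLK2 (ENSSSCG00000007231) lay on the forward strand of chromosome 17, from 35499908 to 35513088, with 4092 exonic bases in 13 blocks. MYLK4 (ENSSSCG00000028777) lay on the reverse strand of chromosome 7, from 1536316 to 1657419, with 9131 exonic bases in 21 blocks. The MYLK4 model shared 978 bases with WRNIP1 on the opposite strand, and since the counting named no strand option, reads in that overlap cannot be assigned to either gene. SMTNL1 and MYLK4 had no symbol of their own and were named by the position of the RefSeq gene on the same assembly.

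The libraries held between 16137365 and 26546810 reads counted on genes. Levels are given as CPM, the counts of a gene per 1e6 counted reads after TMM normalization, and 3 reads, taken as the smallest detectable signal, were worth 0.130 to 0.195 CPM. That limit covers counting error only. SMTNL1 had 694 to 3536 reads per library and MYLK4, the least abundant of the 5, had 29 to 181, so the counting error weighed most on MYLK4. Transcripts of the mitochondrial chromosome took 14.05 to 15.9% of the reads in control, 8.64 to 14.8% in UL and 8.002 to 11.6% in ULU, so control and ULU did not overlap in this share. Library 43 of ULU had the lowest TMM factor, 0.765, against 0.925 to 1.21 in the other 16 libraries.

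SMTNL1 was the most abundant of the 5 genes for its length. Its mean level over the 17 libraries was 44.8 CPM per kilobase of exon ± 23.6 (SD, n = 17). PPP1R12A followed at 17.3 ± 3.99 CPM per kilobase (SD, n = 17), and MYLK2 stood at 6.25 ± 1.98 (SD, n = 17). PPP1R12B was lower, at 2.48 ± 0.484 CPM per kilobase (SD, n = 17), and MYLK4 was the lowest at 0.458 ± 0.204 (SD, n = 17). The per-kilobase ranges of the 17 libraries did not meet between PPP1R12A and MYLK2 or between PPP1R12B and MYLK4, overlapped in part between SMTNL1 and PPP1R12A (lowest SMTNL1 library 22.3, highest PPP1R12A library 25.2) and overlapped between MYLK2 and PPP1R12B.

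In ULU the level of SMTNL1 was 118.6 CPM in piglet 40, 90.4 CPM in piglet 41, 43.7 CPM in piglet 42, 155.9 CPM in piglet 43 and 172.0 CPM in piglet 44. In UL it ran from 40.7 CPM in the lowest piglet through a median of 56.6 CPM to 84.3 CPM in the highest. In control it ran from 37.9 CPM through a median of 56.3 CPM to 99.9 CPM in piglet 25. Of the ULU piglets, 4 were above every UL piglet, and 3 of the 5 were above every control piglet. Piglet 42 lay within the range of both other groups.

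The mean level of SMTNL1 was 116 ± 51.5 CPM for the ULU piglets (SD, n = 5), 61.4 ± 22.2 CPM for the control piglets (SD, n = 6) and 57.4 ± 15.4 CPM for the UL piglets (SD, n = 6). ULU thus had the highest mean, and the neighbours in the order, control and UL, differed by less than the spread within either. The log2(fold change) of SMTNL1 was 1.02 with a standard error of 0.288 in ULU vs UL, a ratio of 2.02. In ULU vs control it was 0.92 with a standard error of 0.288, a ratio of 1.89, and in UL vs control it was -0.10 with a standard error of 0.276. Counted from the highest log2(fold change) of all 14203 genes, SMTNL1 ranked 62 in ULU vs UL and 148 in ULU vs control. Without piglet 42 the log2(fold change) was 1.23 in ULU vs UL and 1.13 in ULU vs control, and without piglet 44 it was 0.83 and 0.73, in that order.

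**Figure D1:**
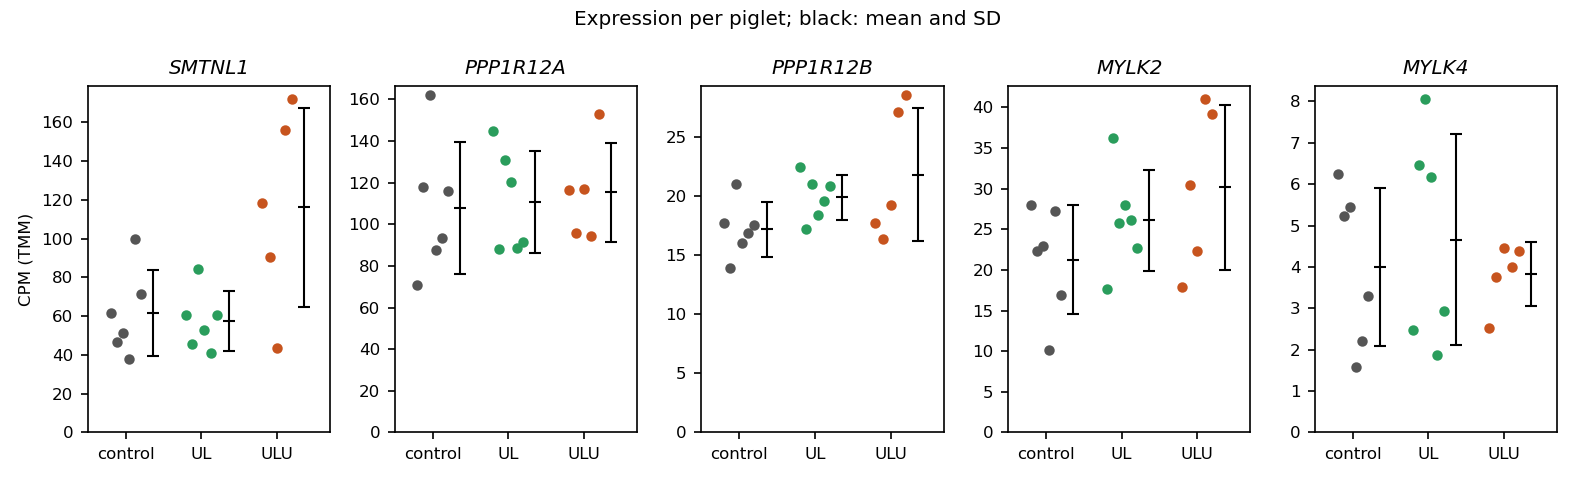
Level of each gene in every piglet, in CPM on a linear axis from 0, with 1 point per piglet (control grey, UL green, ULU orange) and the mean and SD of each diet in black. SMTNL1 spans 43.7 to 172.0 CPM in ULU and 40.7 to 84.3 CPM in UL, while for PPP1R12A and MYLK4 every ULU piglet lies within the range of control.

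PPP1R12A, the main targeting subunit of myosin phosphatase and the subunit that SMTNL1 is known to act on, differed little between diets. The ULU piglets had 116.7 CPM in piglet 40, 95.8 CPM in piglet 41, 116.8 CPM in piglet 42, 94.3 CPM in piglet 43 and 152.8 CPM in piglet 44. In UL it ran from 88.1 CPM through a median of 105.9 CPM to 144.9 CPM, and in control from 71.0 CPM through a median of 104.6 CPM to 161.9 CPM. The range of control held all 5 ULU and all 6 UL piglets. The means were 108 ± 31.9 CPM for the control piglets (SD, n = 6), 111 ± 24.7 CPM for the UL piglets (SD, n = 6) and 115 ± 23.6 CPM for the ULU piglets (SD, n = 5). ULU vs control gave a log2(fold change) of 0.09 (95% interval -0.28 to 0.47) and ULU vs UL gave 0.06 (95% interval -0.32 to 0.43). The sign of these small values was not fixed, since the value in ULU vs control was -0.03 without piglet 44 and -0.27 with the mitochondrial share of each library as a covariate. The highest SMTNL1 piglets were split for this gene, since piglet 44 had the highest PPP1R12A level in ULU and piglet 43 the lowest.

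PPP1R12B, the targeting subunit known mainly from striated muscle, reached its highest levels in 2 ULU piglets. Its level in ULU was 17.7 CPM in piglet 40, 16.4 CPM in piglet 41, 19.2 CPM in piglet 42, 27.1 CPM in piglet 43 and 28.5 CPM in piglet 44. Piglets 43 and 44 were above all 12 control and UL piglets, and the other ULU piglets were within the range of control. UL ran from 17.2 CPM through a median of 20.2 CPM to 22.4 CPM, and control from 13.9 CPM through a median of 17.2 CPM to 21.0 CPM. The means were 17.2 ± 2.32 CPM for the control piglets (SD, n = 6), 19.9 ± 1.91 CPM for the UL piglets (SD, n = 6) and 21.8 ± 5.63 CPM for the ULU piglets (SD, n = 5). Against control, UL had a log2(fold change) of 0.21 with a standard error of 0.140, and ULU had 0.34 with a standard error of 0.146 against control and 0.13 with a standard error of 0.146 against UL.

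MYLK2, the light chain kinase of skeletal muscle, was also highest in ULU piglets 43 and 44. MYLK2 stood in ULU at 17.9 CPM in piglet 40, 30.5 CPM in piglet 41, 22.3 CPM in piglet 42, 41.1 CPM in piglet 43 and 39.2 CPM in piglet 44. UL ran from 17.7 CPM through a median of 25.9 CPM to 36.3 CPM, and control from 10.2 CPM through a median of 22.6 CPM to 28.0 CPM. Of the ULU piglets, 3 were above every control piglet, 2 were above every UL piglet, and all 3 diets overlapped. The means were 21.3 ± 6.72 CPM for the control piglets (SD, n = 6), 26.1 ± 6.16 CPM for the UL piglets (SD, n = 6) and 30.2 ± 10.2 CPM for the ULU piglets (SD, n = 5). For MYLK2 the log2(fold change) was 0.30 with a standard error of 0.235 in UL vs control, 0.51 with a standard error of 0.245 in ULU vs control and 0.21 with a standard error of 0.245 in ULU vs UL. With the mitochondrial share of each library as a covariate the first and second of these values became 0.80 and 1.20, and MYLK2 was the gene of the 5 that this setting moved most.

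MYLK4, a kinase of the same family that is transcribed in striated muscle, varied more between piglets than between diets. Its level in ULU was 2.53 CPM in piglet 40, 3.77 CPM in piglet 41, 4.46 CPM in piglet 42, 3.99 CPM in piglet 43 and 4.38 CPM in piglet 44. UL ran from 1.88 CPM through a median of 4.54 CPM to 8.05 CPM, and control from 1.58 CPM through a median of 4.26 CPM to 6.24 CPM. Every ULU piglet was within the range of both other diets. The means were 4.003 ± 1.91 CPM for the control piglets (SD, n = 6), 4.66 ± 2.55 CPM for the UL piglets (SD, n = 6) and 3.83 ± 0.776 CPM for the ULU piglets (SD, n = 5). The 95% interval of the log2(fold change) ran from -0.80 to 0.68 in ULU vs control, from -1.03 to 0.45 in ULU vs UL and from -0.48 to 0.93 in UL vs control, so differences of that size were not resolved for this gene.

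**Figure D2:**
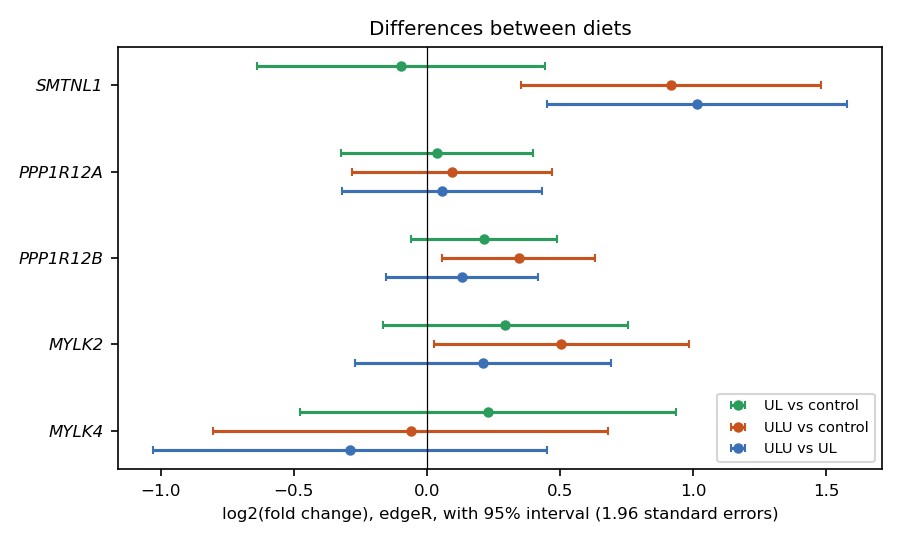
log2(fold change) of the 5 genes, green for UL vs control, orange for ULU vs control and blue for ULU vs UL, on a linear axis, with bars for the 95% interval from the edgeR fit of all 17 libraries. The SMTNL1 values of both comparisons with ULU, 0.92 and 1.02, lie farthest to the right, and the PPP1R12A values lie between 0.04 and 0.09.

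Set beside all genes, most of the 5 genes had values above 0 in each comparison. They were chosen with results of these libraries in view, so their signs and medians are descriptions and nothing is read from them. Values above 0 were found for 4 of 5 genes in UL vs control, and likewise for 4 of 5 in each comparison with ULU, where 49.5%, 47.0% and 46.95% of the 14203 genes were above 0 (in the order UL vs control, ULU vs control, ULU vs UL). The median of the 5 was 0.21 in UL vs control, 0.34 in ULU vs control and 0.13 in ULU vs UL, and that of all genes tested was -0.00266, -0.03 and -0.02. The 3 comparisons share their libraries in pairs and are not independent. SMTNL1 was the gene below 0 in UL vs control and MYLK4 the gene below 0 in both comparisons with ULU. When the libraries were scaled by their totals alone, the median of all genes shifted to -0.08, -0.21 and -0.13, PPP1R12A fell below 0 in all 3 comparisons, and relative to that median it stayed above, by 0.04, 0.13 and 0.08.

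A gene is counted as called where its adjusted p-value was under 0.05 (edgeR quasi-likelihood F test, Benjamini-Hochberg over 14203 genes). In ULU vs control 2.98% of all genes were called (0.415% when an absolute log2(fold change) of 1 or more was also required), in ULU vs UL 0.0352%, and in UL vs control 0%, where 1541 genes (10.85%) had an unadjusted p-value under 0.05 and DESeq2 called 139. Of the 5 genes edgeR called 0 in each comparison. The unadjusted p-value was under 0.05 for 0 of them in UL vs control, 2 in ULU vs control (18.9% over all genes) and 1 in ULU vs UL (10.8% over all genes). DESeq2 on all libraries called 1 of the 5, SMTNL1, in ULU vs control and in ULU vs UL, among its 1036 and 165 calls over all genes. It called 0 of the 5 in UL vs control. edgeR also called SMTNL1 in ULU vs control when control piglet 25, the highest of its group, or ULU piglet 42, the lowest of its group, was left out. These comparisons chose the genes, so nothing is read from the calls.

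The spread among piglets of the same diet differed between the genes. The SD of log2 CPM within diets was 0.56 for SMTNL1 and 0.71 for MYLK4, with a median of 0.35 over all genes tested, and 75.9% and 85.2% of the genes tested varied less. MYLK2 had an SD of 0.47, PPP1R12A of 0.35 and PPP1R12B of 0.24. PPP1R12B was thus the steadiest of the 5, and 26.5% of the genes tested varied less than it did.

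Piglets with more SMTNL1 than the mean of their diet tended to have more PPP1R12B. Over the 17 libraries, Pearson's r, computed on log2 CPM after the mean of each diet was subtracted, was 0.51 for SMTNL1 and PPP1R12B (Spearman's rank correlation 0.58). It was 0.60 without the 2 piglets whose SMTNL1 level lay farthest from the mean of their own diet. For SMTNL1 and MYLK2 r was 0.41, and 0.29 without those 2 piglets. For SMTNL1 and PPP1R12A it was 0.15, and for SMTNL1 and MYLK4 it was 0.07, but without the same 2 piglets these became 0.31 and 0.32, so the order of the weaker pairs rests on those piglets. Both kinases varied together, with an r of 0.57 between MYLK2 and MYLK4. It was 0.35 without the 2 piglets whose MYLK2 level lay farthest from the mean of their own diet. All 10 pairs of the 5 genes were computed, the points share library, depth and scaling, and the values are descriptions. Over all genes ranked with SMTNL1 in the same way, 3.41% had an r of at least 0.5.

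**Figure D3:**
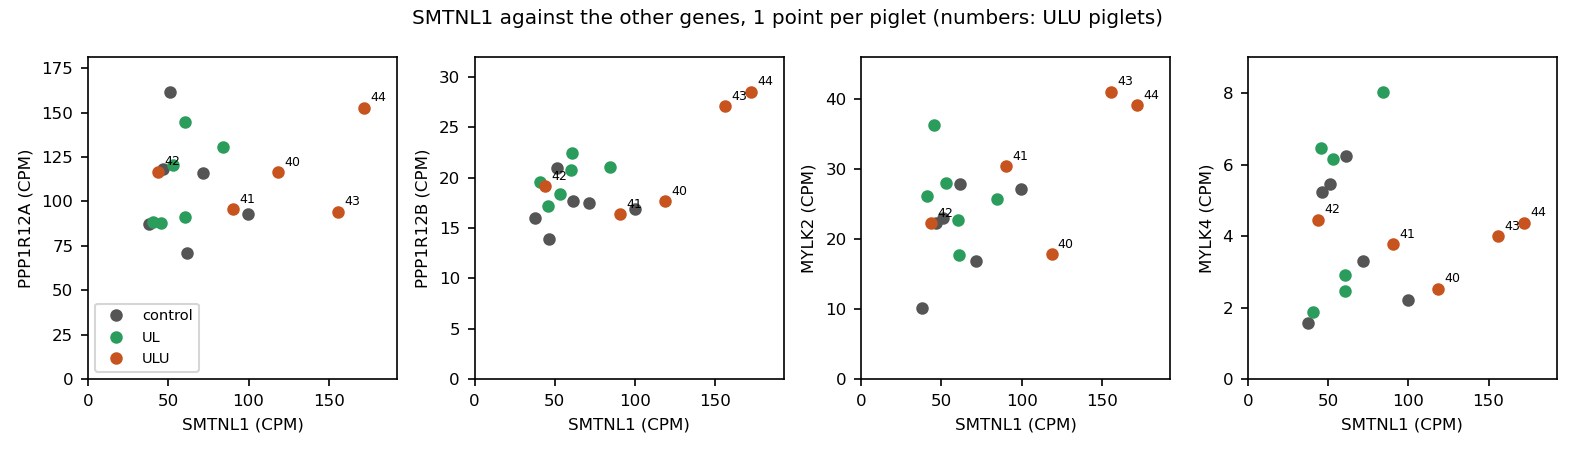
SMTNL1 (horizontal axis, CPM) against PPP1R12A, PPP1R12B, MYLK2 and MYLK4 (vertical axes, CPM), with 1 point per piglet, coloured by diet, and the ULU piglets numbered. ULU piglets 43 and 44 are the highest for SMTNL1, PPP1R12B and MYLK2, and for PPP1R12A piglet 44 is high and piglet 43 is not.

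The genes whose levels followed SMTNL1 most closely over the 17 libraries, among 10887 genes with a symbol and a mean of at least 1 CPM, were PREP, a prolyl endopeptidase (r = 0.83), VEZF1, a zinc finger transcription factor of vessels (r = 0.81), SPHK2, a sphingosine kinase (r = 0.80), SUCLA2, a subunit of succinyl-CoA synthetase (r = 0.80), and IDH2, the mitochondrial isocitrate dehydrogenase (r = 0.80). Each of these 5 had its highest mean in ULU, for example IDH2 with 376 ± 70.05 CPM for the control piglets (SD, n = 6), 429 ± 53.4 CPM for the UL piglets (SD, n = 6) and 532 ± 81.1 CPM for the ULU piglets (SD, n = 5). None of the 5 was called by edgeR in a comparison, the lowest adjusted p being 0.0537, for IDH2 in ULU vs control. With the diet means taken out, the closest were PER1, a repressor of the circadian clock (r = 0.87), GBA2, a glucosylceramidase (r = 0.86), STAU2, which binds double-stranded RNA (r = 0.80), HAPSTR1 (r = 0.76) and SPECC1L, a cytoskeletal protein (r = 0.76).

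PER1 and SMTNL1 thus varied together within diets and lay on opposite sides of 0 in ULU vs control. PER1 had a mean of 35.4 ± 12.5 CPM for the control piglets (SD, n = 6), 19.8 ± 2.81 CPM for the UL piglets (SD, n = 6) and 10.9 ± 5.19 CPM for the ULU piglets (SD, n = 5). In ULU vs control its log2(fold change) was -1.70 (edgeR, adjusted p = 0.00502), while the SMTNL1 value was 0.92. STAU2 was called as well, with a log2(fold change) of 0.42 in ULU vs control (edgeR, adjusted p = 0.0193). These genes were ranked on the same libraries, and likeness of level is all that the ranking measures.

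Another 51 genes of the same pathway were listed by role, of which 49 had a row and 43 were tested. In ULU vs control 3 of the 43 were higher and 0 were lower, and the background in that comparison was 1.99% of all genes higher and 0.993% lower. In the other comparisons, UL vs control and ULU vs UL, edgeR called 0 of the 43. Of them, 10 and 8 had an unadjusted p-value under 0.05, where the share over all genes was 10.8% in either comparison. DESeq2 on all libraries called 1 in each, PRKACA among its 139 calls over all genes and PPP1CC among its 165. An unadjusted p-value under 0.05 was found for 16 of the 43 in ULU vs control, where 18.9% of all genes had one. Of the 43, 26 were above 0 in that comparison, and their median log2(fold change) was 0.14, with -0.03 over all genes tested.

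**Figure D4:**
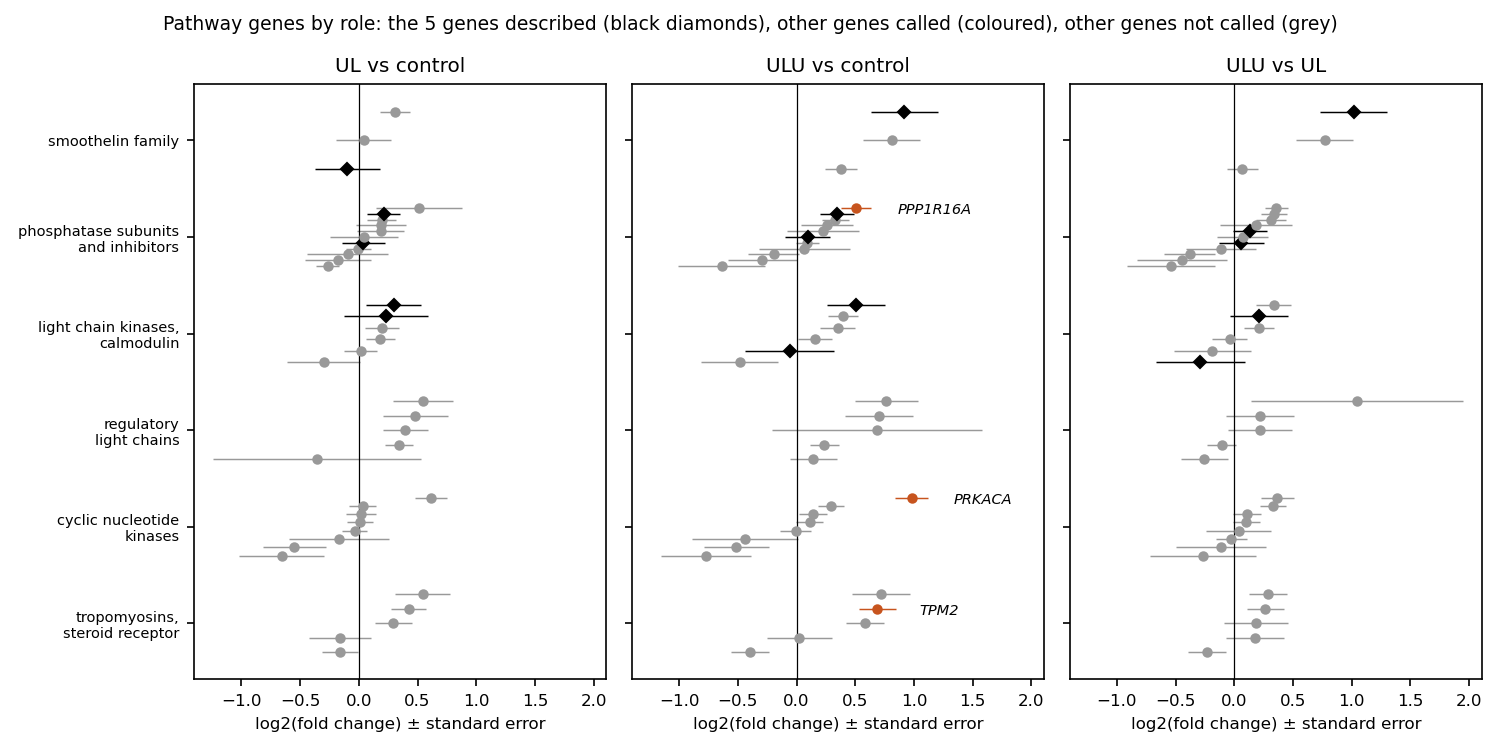
log2(fold change) with its standard error for the tested pathway genes of 6 roles, arranged in rows, with 1 panel for each of the 3 comparisons. Black diamonds are the 5 genes described, coloured points are other genes called by edgeR (PPP1R16A, PRKACA and TPM2, all in ULU vs control) and grey points are genes not called.

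Of the smoothelin family, SMTNL2 was closest to SMTNL1 in its levels by diet, and edgeR called 0 of the 2 other genes of the family in each comparison. In ULU vs control both had an unadjusted p-value under 0.05, where the share over all genes was 18.9%. DESeq2 on all libraries called SMTNL2 there, among its 1036 calls over all genes. SMTNL2 is a smoothelin-like gene of skeletal muscle. SMTNL2 stood in ULU at 50.4 CPM in piglet 40, 41.5 CPM in piglet 41, 48.3 CPM in piglet 42, 57.9 CPM in piglet 43 and 56.0 CPM in piglet 44. It ran from 16.3 to 50.5 CPM in control, with a median of 23.6 CPM, and from 21.2 to 37.4 CPM in UL, with a median of 30.2 CPM. Every ULU piglet was above every UL piglet for SMTNL2, a pattern that 1.75% of all genes tested had in 1 direction or the other. Control and ULU overlapped, with control piglet 21 at 50.5 CPM and control piglet 25 at 42.7 CPM. Of the 5 ULU piglets, 2 were above every control piglet. For SMTNL2 the log2(fold change) was 0.77 with a standard error of 0.245 in ULU vs UL (edgeR, adjusted p = 0.269) and 0.81 with a standard error of 0.245 in ULU vs control (edgeR, adjusted p = 0.0742). Unlike SMTNL1, SMTNL2 was not low in piglet 42. SMTN, the smoothelin of contractile smooth muscle, had a mean of 24.2 ± 3.98 CPM for the control piglets (SD, n = 6), 30.0 ± 3.90 CPM for the UL piglets (SD, n = 6) and 31.4 ± 4.56 CPM for the ULU piglets (SD, n = 5). Pearson's r with SMTNL1 over the 17 libraries was 0.57 for SMTN and 0.56 for SMTNL2. With the diet means taken out it was 0.58 and 0.25, so by that measure SMTN was closer to SMTNL1. SMTNL2 and SMTN are shown as the rest of the family and were chosen after their values were seen.

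Among the phosphatase subunits and inhibitors, 1 of 9 tested genes other than PPP1R12A and PPP1R12B was called higher in ULU vs control and 0 were called lower (1.99% and 0.993% over all genes). That gene was PPP1R16A, a membrane-bound targeting subunit of the same family, which was named by position as SMTNL1 and MYLK4 were. Its level in ULU was 27.2 CPM in piglet 40, 28.0 CPM in piglet 41, 25.4 CPM in piglet 42, 31.3 CPM in piglet 43 and 33.9 CPM in piglet 44. In control it ran from 16.1 CPM through a median of 20.5 CPM to 25.7 CPM, so 4 of 5 ULU piglets were above every control piglet. PPP1R16A had a log2(fold change) of 0.51 with a standard error of 0.130 (edgeR, adjusted p = 0.0434), and the call was lost in 12 of the 17 fits that left out 1 library, with an adjusted p of up to 0.0986, and in 4 of 8 other alternatives, with an adjusted p of up to 0.490 when the mitochondrial share was a covariate. The most abundant subunit for its length was the catalytic PPP1CB, at 102 CPM per kilobase, with means of 366 ± 29.5 CPM for the control piglets (SD, n = 6), 365 ± 52.3 CPM for the UL piglets (SD, n = 6) and 460 ± 57.0 CPM for the ULU piglets (SD, n = 5). ULU exceeded control by a log2(fold change) of 0.33 with a standard error of 0.112 (edgeR, adjusted p = 0.104).

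Of the 4 other genes tested among the light chain kinases and calmodulins, 0 were called by edgeR in any comparison. In ULU vs control 2 had an unadjusted p-value under 0.05 (18.9% over all genes). DESeq2 on all libraries called 1 there, CALM3, among its 1036 calls over all genes. The calmodulin gene CALM2 was the most abundant for its length, at 340 CPM per kilobase, against 6.25 for MYLK2, the kinase that calmodulin activates. CALM2 stood at 691 ± 181 CPM for the control piglets (SD, n = 6), 699 ± 100 CPM for the UL piglets (SD, n = 6) and 881 ± 40.0 CPM for the ULU piglets (SD, n = 5), with a log2(fold change) in ULU vs control of 0.35 (edgeR, adjusted p = 0.204). The cardiac kinase MYLK3 had 0 to 13 reads per library and was not tested. In this muscle MYLK2 was therefore the kinase of the MYLK group with the highest level per kilobase, MYLK4 and MYLK both being below 0.5 CPM per kilobase.

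The regulatory light chains, the substrates of the kinases, had 0 of 5 tested genes called by edgeR in each comparison, with 2 at an unadjusted p-value under 0.05 (18.9% over all genes) and 1 called by DESeq2, MYL2, in ULU vs control. MYL11, the regulatory light chain of fast skeletal fibres, was the most abundant of all genes on these lists for its length, at 22090 CPM per kilobase. Its log2(fold change) was 0.40 in UL vs control (edgeR, adjusted p = 0.470) and 0.14 in ULU vs control (edgeR, adjusted p = 0.744). DESeq2 on all libraries called 9 of the 43 pathway genes in ULU vs control, all higher, among its 1036 calls over all genes. The 9 were the 3 that edgeR called and PPP1CB, CALM3, MYL2 (the light chain of slow fibres), SMTNL2, TPM1 and TPM3.

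**Figure D5:**
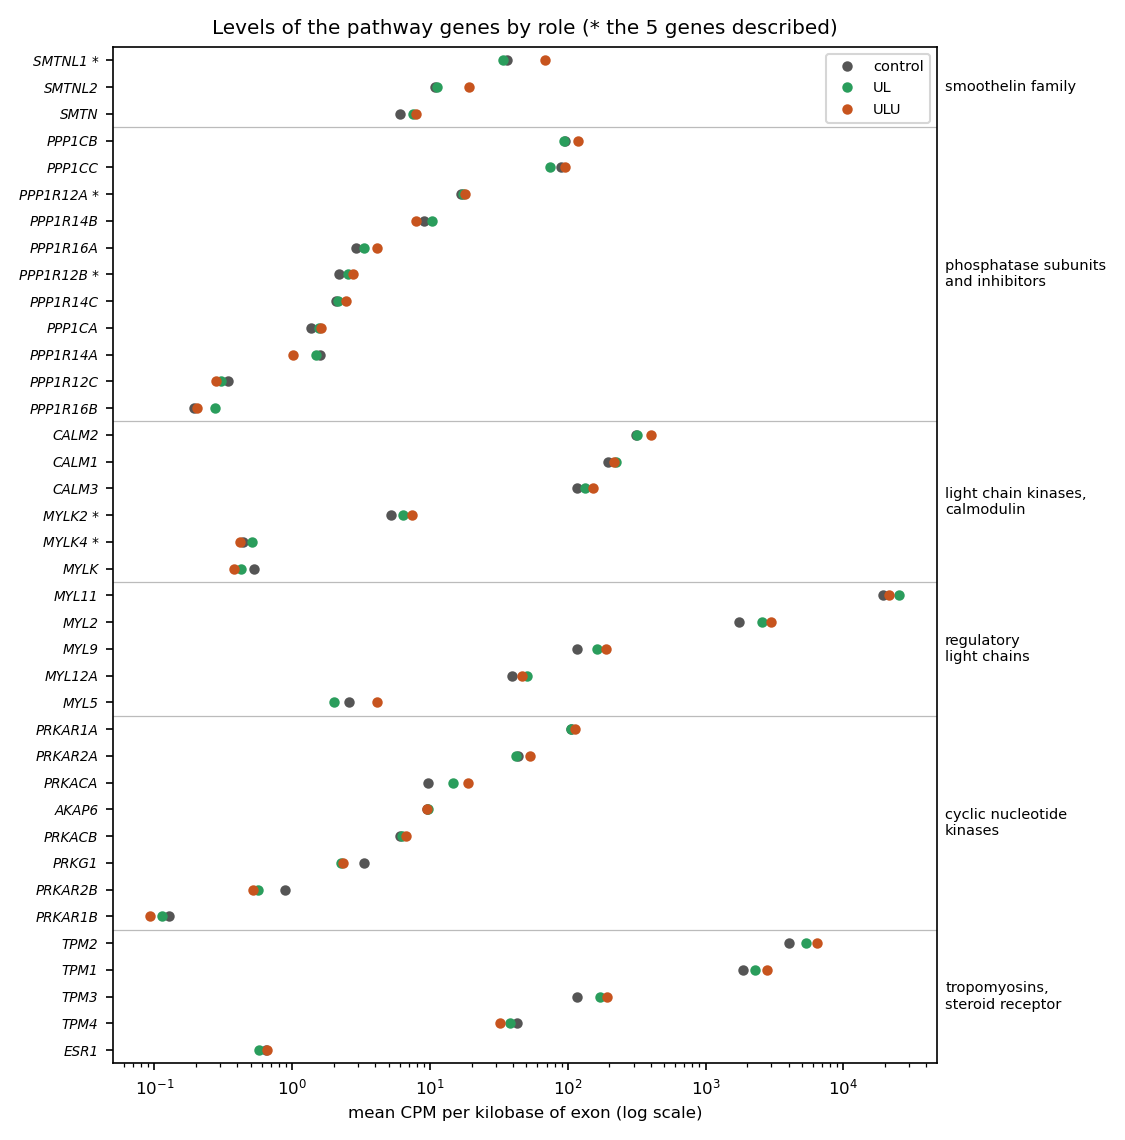
Mean level of the tested pathway genes of the same 6 roles per kilobase of exon, on a log axis, with 1 point per diet (control grey, UL green, ULU orange) and the 5 genes described marked by an asterisk. MYL11, at 22090 CPM per kilobase over all libraries, is at the far right, and MYLK4, at 0.458, is among the lowest.

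Cyclic nucleotide kinases are upstream of SMTNL1, which is phosphorylated by them. Of this list 1 of 8 tested genes was called higher in ULU vs control and 0 were called lower (1.99% and 0.993% over all genes). PRKACA encodes the main catalytic subunit of the cyclic AMP dependent kinase. PRKACA stood in ULU at 52.4 CPM in piglet 40, 46.9 CPM in piglet 41, 49.6 CPM in piglet 42, 57.9 CPM in piglet 43 and 39.3 CPM in piglet 44. In control it ran from 21.7 CPM through a median of 23.0 CPM to 35.1 CPM in piglet 25. Every ULU piglet was above every control piglet, and 3.39% of all genes tested had diets that did not overlap in this comparison. The log2(fold change) of PRKACA was 0.98 with a standard error of 0.141 in ULU vs control (edgeR, adjusted p = 0.00181). For UL vs control it was 0.61 (edgeR, adjusted p = 0.152), where 5 of 6 UL piglets were above every control piglet, and 0.37 in ULU vs UL (edgeR, adjusted p = 0.359). The call in ULU vs control was kept in all 17 fits that left out 1 library and was lost with the mitochondrial share as a covariate (log2(fold change) 1.22, edgeR, adjusted p = 0.0650). Since the mitochondrial share did not overlap between control and ULU, it and the diet cannot be told apart there. The regulatory subunit PRKAR1A, the most abundant gene of this list for its length, at 108 CPM per kilobase, had a log2(fold change) of 0.11 in ULU vs control (edgeR, adjusted p = 0.640).

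On the list of tropomyosins and the oestrogen receptor 1 of 5 tested genes was called higher in ULU vs control and 0 were called lower (1.99% and 0.993% over all genes). That gene was TPM2, the beta tropomyosin. SMTNL1 is known to bind tropomyosin. TPM2 stood at 10700 CPM in piglet 40, 9874 CPM in piglet 41, 9532 CPM in piglet 42, 11680 CPM in piglet 43 and 10370 CPM in piglet 44 of ULU. It ran from 4441 to 9087 CPM in control and from 7345 to 9431 CPM in UL, so ULU lay above both, and above UL by a narrow margin. Diets did not overlap for 3.39% of all genes tested in ULU vs control and for 1.75% in ULU vs UL. The log2(fold change) of TPM2 was 0.69 with a standard error of 0.159 in ULU vs control (edgeR, adjusted p = 0.0294) and 0.26 with a standard error of 0.160 in ULU vs UL (edgeR, adjusted p = 0.586). The call in ULU vs control was lost in 7 of the 17 fits that left out 1 library, with an adjusted p of up to 0.0683, and in 3 of 8 other alternatives, with an adjusted p of up to 0.272 when the mitochondrial share was a covariate. The progesterone receptor PGR, a known partner of SMTNL1 in pregnancy, had 0 to 4 reads per library and was not tested.

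Over all 17 libraries, 8 of 40 pathway genes that could be ranked had an r of at least 0.5 with SMTNL1, or 20%, while 6.54% of the 10887 genes did. With the diet means taken out it was 4 of 40, or 10%, and 3.41% of all genes. TPM2 (r = 0.64), SMTN (r = 0.58), PPP1CA, a catalytic subunit of the phosphatase (r = 0.55), and PPP1R16A (r = 0.54) were these 4, named after their values were seen. At the other end was PPP1R14B, an inhibitor of the phosphatase, with r = -0.65 with the diet means taken out. These values are descriptions over libraries that share depth and scaling, and the pathway genes are not independent of each other.

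Among the markers of the tissue, ACTA1, the skeletal actin, had 21030 CPM per kilobase, and every smooth muscle marker was far lower. The smooth muscle myosin MYH11 had 0.215 CPM per kilobase, ACTG2 had 0.4191, LMOD1 had 0.1624 and MYOCD had 0.04708. Other smooth muscle markers were well detected, with 31.37 CPM per kilobase for ACTA2, 24.86 for CNN1 and 10.96 for TAGLN. RNA of smooth muscle was therefore not absent from the tissue. The myosin heavy chains of fast fibres fell on a single gene model that spans MYH1, MYH2 and MYH4, on chromosome 12 from 55190429 to 55278539. That model ran from 18410 to 24020 CPM in control and from 22770 to 37660 CPM in ULU, with a log2(fold change) of 0.53 (edgeR, adjusted p = 0.0397). The model that spans MYH6 and MYH7, the slow and cardiac heavy chains, had a log2(fold change) of 1.11 in ULU vs control (edgeR, adjusted p = 0.0236). Of the other genes of slow fibres 2 of 7 were called higher in ULU vs control, of fast fibres 3 of 6 and of skeletal muscle markers 1 of 4, and in each of these lists 0 were lower. Over all genes 1.99% were called higher and 0.993% lower. In UL vs control edgeR called 0 in each list. There 7 of 7 slow fibre genes (median log2(fold change) 0.59), 6 of 6 fast fibre genes (0.38) and 4 of 4 skeletal muscle markers (0.33) were above 0, and SMTNL1 was at -0.10. The part of these genes in the SMTNL1 values was not tested. Within diets SMTNL1 had an r of 0.59 with the fast myosin model and 0.47 with the slow one, and lower values with the summed lists, 0.25 for the fast fibre genes, 0.27 for the slow fibre genes and 0.35 for the skeletal muscle markers.

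Markers of other cell types, 25 tested genes, had 0 called by edgeR and 0 by DESeq2 in ULU vs control, with 5 at an unadjusted p-value under 0.05, near the 18.9% of all genes. The summed smooth muscle markers, 7 genes of which 5 were tested, ranged from 117 to 242 CPM in control, from 134 to 186 CPM in UL and from 118 to 210 CPM in ULU. The summed endothelial markers, 5 genes, ranged from 120 to 184 CPM in control, from 115 to 269 CPM in UL and from 116 to 195 CPM in ULU. The summed fibroblast markers, 5 genes, ranged from 2640 to 5724 CPM in control, from 3310 to 6458 CPM in UL and from 2248 to 5724 CPM in ULU. Within diets they had an r of -0.58 with SMTNL1. Those of adipocytes, 5 genes, ranged from 75.9 to 580 CPM in control, from 54.98 to 179.2 CPM in UL and from 25.2 to 143 CPM in ULU. Those of leukocytes, 6 genes, ranged from 33.1 to 146 CPM in control, from 45.85 to 95.88 CPM in UL and from 20.2 to 132 CPM in ULU. Values of ULU vs control on the log2 scale were below 0 for 4 of 4 tested adipocyte markers (median -1.23), 6 of 6 leukocyte markers (median -0.53) and 5 of 5 fibroblast markers (median -0.36). In that comparison these markers moved opposite to SMTNL1, without passing the test. In UL vs control 0 of 4 adipocyte (median -0.95), 2 of 6 leukocyte (median -0.17) and 1 of 5 fibroblast markers (median -0.22) were above 0, and SMTNL1 was at -0.10. No marker was at 0 in every library, and the part of these cells in the SMTNL1 values was not tested.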

How the data were processed

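Muscle RNA of 17 piglets (6 control, 6 UL, 5 ULU) was read by the authors from single ends of 75 nt, trimmed (fastp), aligned to Sscrofa11.1 (HISAT2) and deposited as raw counts per gene, not normalized; the file header names featureCounts 2.0.1 and Ensembl annotation 104, while the submitters' processing notes name Subread 1.5.1. The deposited mean of the counts over libraries, an unscaled signal per gene, was used only to check the columns. This header gives no option for strand or for reads placed at several sites, so near-identical genes, such as the calmodulins or myosins, and overlapping genes can share or lose reads.

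Of 31908 genes, 15029 were named from a table of Ensembl identifiers and 3609 by position on the RefSeq annotation of the same assembly (shared span of at least 0.5 of the joint span). SMTNL1, MYLK4, PPP1R16A and TPM3 were among those named by position. The counts were analysed with edgeR 4.0.16 in R 4.3.3 (TMM, the filter of edgeR on low counts, quasi-likelihood F test, 1 model of all 17 libraries, Benjamini-Hochberg over 14203 genes). DEGs, which also need a log2(fold change) of at least 1, were 0.415% of the genes in ULU vs control. Standard errors were taken from the log2(fold change) and its F statistic (absolute value over root of F), the 95% intervals are normal intervals from them, and log2 CPM used a prior count of 2. The test was checked on simulated counts.

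The 5 genes, the pathway lists and the marker lists were chosen with earlier results of these data known. Apart from the 5 genes, the text names the pathway genes called in any comparison, the most abundant gene of each list shown per kilobase, and the 5 genes most like SMTNL1 by each measure of r; SMTN, SMTNL2, MYLK, MYLK3, PGR, PPP1CA, PPP1R14B and the genes called by DESeq2 alone were named after their values were seen. Alternatives were DESeq2 1.42.0, other scalings, filters and sets of libraries, the mitochondrial share as a covariate, and leaving out each library. Piglets are the replicates, and the order of slaughter or sequencing is not given in the sources used here. The methods name 6 piglets per diet, and 5 ULU libraries were analysed here. No sequences of the 5 genes are printed. Of the pathway lists, 1, whose 10 tested genes are counted among the 43, is not reported here.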

Additional observations from a re-analysis of the deposited data

Results flagged for a closer look

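Of the 24 groups of samples that were examined (the 5 genes and the called pathway genes PPP1R16A, PRKACA and TPM2, in 3 diets), 1 had a piglet far from the others. PRKACA in control piglet 25 was 35.11 CPM, and the other 5 control piglets lay between 21.7 and 24.5 CPM. Chance marks about 1 in 20 such groups, so 1 in 24 is near that rate. Without this piglet the log2(fold change) of PRKACA was 1.10 in ULU vs control and 0.74 in UL vs control. Control piglet 25 also had the highest SMTNL1 level of its diet, 99.9 CPM.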

How the results depend on the processing

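For SMTNL1 the log2(fold change) ran from 0.83 to 1.23 in ULU vs UL and from 0.73 to 1.13 in ULU vs control over the 17 fits that each left out 1 library, and from 0.87 to 1.09 and from 0.72 to 1.21 under the other alternatives. In UL vs control it ran from -0.24 to 0.10, and from -0.15 to 0.12. Of the other pathway genes, 3 were called in ULU vs control. That count was 9 with DESeq2 on all libraries, 7 with DESeq2 and 1 with edgeR on the libraries of the diets compared, 1 with every gene that has a read, 0 with the mitochondrial share as a covariate and 0 with a log2(fold change) of at least 1. It ran from 1 to 8 when 1 library was left out, with 8 without control piglet 25, 5 without control piglet 21 and 1 without any of control piglets 22, 23, 24 and 26 or ULU piglets 40, 41 and 43. In UL vs control the count of 0 became 1 with either form of DESeq2 and ran from 0 to 1 when 1 library was left out, with PRKACA called without control piglet 25. In ULU vs UL the count of 0 became 1 with DESeq2 on all libraries and 4 with DESeq2 on the libraries compared. The cause was not tested. With the mitochondrial share as a covariate PPP1R12A moved to -0.27 in ULU vs control.

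Over all genes, the 423 called in ULU vs control became 1036 and 822 with DESeq2, 228 with every gene that has a read, 111 with edgeR on the libraries compared and 8 with the covariate, and ran from 147 to 799 when 1 library was left out. In ULU vs UL the 5 called became 165 and 244 with DESeq2, and in UL vs control 0 became 139 and 149. The 59 DEGs in ULU vs control became 93 with library totals alone, 115 and 71 with DESeq2, 42 with every gene that has a read, 27 with edgeR on the libraries compared and 8 with the covariate, and ran from 30 to 121 when 1 library was left out. No paired analysis was possible because the diets share no replicate numbers. The piglets were pair-fed, but the labels do not name the feeding pairs, so any link between piglets of different diets was left out. Depth limited MYLK4 most, with as few as 29 reads in a library.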
